A study of Mus musculus with 16 samples.

Results

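Sorted SmoM2-expressing cells of mouse tail epidermis were compared between 4 and 10 weeks after tamoxifen, an early lesion against an established tumour stage. The comparison takes the 2 arrays titled 10 weeks and the 3 titled 4 weeks, 5 of the 16 arrays of the series, chosen by their titles. All 5 came from K14CREER/Rosa-SmoM2-YFP mice of mixed strain background, in which tamoxifen activates a Cre recombinase driven by the keratin 14 promoter and so switches on SmoM2 and YFP in basal epithelium. SmoM2-positive basal cells of the interfollicular epidermis (IFE) were sorted by flow cytometry. The 3 control arrays, whose levels are given beside the others, came from untreated mice of the same genotype and strain background. Age and sex are not given in the labels, so time since tamoxifen cannot be told apart from age. The transgenic genotype and the agent are the same at both times, while the rest of the mixed background may differ between mice.

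SmoM2 is a constitutively active form of Smoothened, the membrane protein that relays hedgehog signals. In normal skin, hedgehog ligand binds Patched, which releases Smoothened and lets the Gli transcription factors switch on targets such as Gli1, Ptch1 and Hhip. Basal cell carcinoma of the skin is driven by this pathway, and its cells resemble the embryonic hair placode and germ.

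Values are log2 signals, in which a difference of 1 is 2-fold, and differences are given as 10 weeks minus 4 weeks with the standard error (SE) of a limma model. Levels of different genes on these arrays cannot be set against each other. Keratins 5 and 14, the defining pair of basal epidermis, were bright on all 5 arrays. Krt5 was 13.88, 13.68 and 13.49 at 4 weeks and 13.67 and 13.70 at 10 weeks. Krt14 was 13.42, 12.83 and 13.56 at 4 weeks and 13.41 and 13.54 at 10 weeks, and another of its probe sets differed by -0.92. The bulge marker Cd34 was not above the 40th percentile of its array, the line used here for dim signals, on any of the 5.

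The arrays themselves differed in ways that bear on every result. The 10-week arrays were closer to each other (median absolute difference 0.118 over the genes tested) than arrays of the other IFE groups were (0.279 to 0.484), and the labels do not say that they are separate mice. If they are not, p-values treat technical spread as biological. The 4-week arrays lay 0.358 to 0.484 apart. Between the controls, 1 week and 4 weeks, arrays with the same replicate number deviated together from their group means (correlations of 0.34 to 0.70 for 9 same-numbered pairs and -0.53 to -0.0021 for 18 others). For the 10-week arrays titles and descriptions give different numbers, and their deviations correlated with those of the 4-week array of the same number at 0.057 and -0.042 by title and at 0.042 and 0.12 by description. Deviations of a pair of arrays from their own mean mirror each other, so these values rest on a single difference and cannot settle the numbering. Both 10-week arrays lay nearest to 4-week replicate 3 (0.208 and 0.224, against 0.361 to 0.383 for replicates 1 and 2). Replicate 2 at 4 weeks had an upper quartile of 7.50, against 7.71 and 7.69 at 10 weeks. Xist, expressed from the inactive X chromosome, was 6.50, 8.12 and 12.52 at 4 weeks and 5.20 and 5.51 at 10 weeks, and the mean of the Y-linked genes was 8.41, 7.58 and 6.02 against 8.10 and 8.15. The 10-week samples thus had little Xist signal, while replicates 2 and 3 at 4 weeks had both Xist and Y-linked signal.

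No gene passed the threshold of 0.05 on the p-value adjusted over all 14286 genes tested (0 genes, 0.0%). At an unadjusted p under 0.05, 421 genes were higher at 10 weeks (2.95%) and 472 lower (3.3%), 893 in all (6.25%). A descriptive count was therefore used beside the test: genes whose group means lay at least 2-fold apart and whose 2 and 3 arrays did not overlap. It held 200 genes higher at 10 weeks (1.4% of those tested) and 161 lower (1.13%), 361 in all (2.53%). With no limit on size, 1860 genes were higher without overlap (13.0%) and 1935 lower (13.5%). The median difference over all genes tested was -0.03, and 6618 of them (46.3%) had a positive difference.

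Single arrays weighed heavily on these counts. Replicate 1 at 4 weeks was the one farthest from the 10-week mean for 141 of the 200 higher and 123 of the 161 lower genes. The count of 361 became 268 without that array, 726 without 4-week replicate 2 and 826 without replicate 3. It was 481 and 394 without 10-week replicate 1 and 2. The 893 genes at an unadjusted p under 0.05 became 500, 1142 and 1605 without 4-week replicates 1, 2 and 3, and 289 and 217 without 10-week replicates 1 and 2. The count past the adjusted p became 1 (Stap1) without 4-week replicate 1 and 13, Defb3 and Col4a3 among them, without replicate 2, and remained 0 without any other of the 5 arrays. With the replicate number as a block in the fit, the 361 became 548 by title and 301 by description, the 893 became 2587 and 1215, and the count past the adjusted p became 2 and 0. In these fits the size of a difference was adjusted for the block, while overlap was still judged on the unadjusted values.

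**Figure D1:**
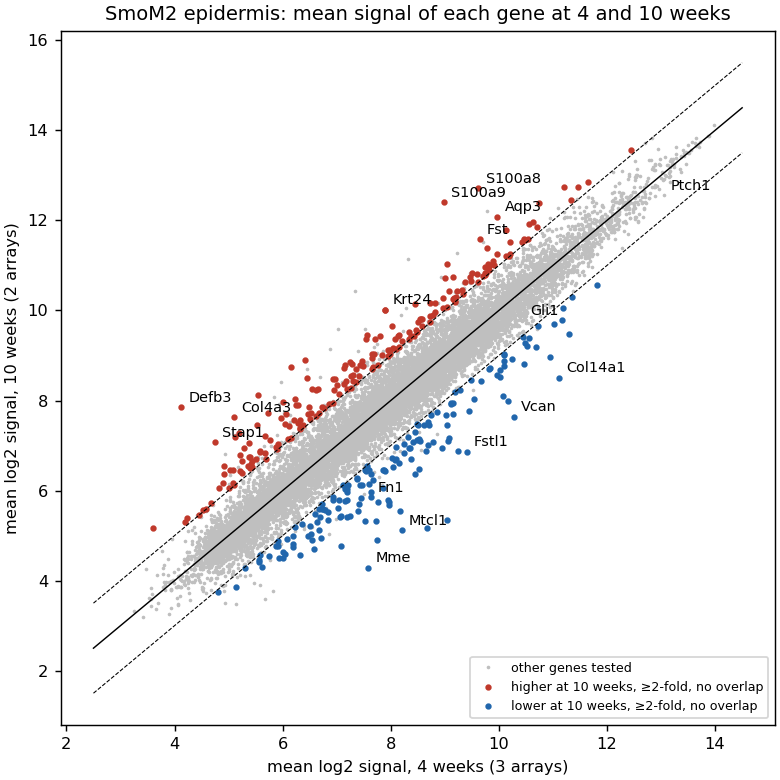
Mean log2 signal of each of the 14286 genes tested at 4 weeks (x axis, 3 arrays) and 10 weeks (y axis, 2 arrays). Red and blue points are the 200 higher and 161 lower genes that lay at least 2-fold apart without overlap, dashed lines mark 2-fold and the solid line equality. Defb3 stands farthest above the line and Mme and Vcan lie far below it, while Gli1 and Ptch1 lie within the dashed lines.

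The gene nearest to the threshold was Defb3, a beta-defensin, one of the small antimicrobial peptides that keratinocytes secrete. Defb3 was 3.49, 5.21 and 3.67 at 4 weeks, 8.35 and 7.34 at 10 weeks and 3.49 on average in the controls. Both 10-week arrays stood well above all 3 at 4 weeks, of which only 1 was above the 40th percentile. The size of the difference, 3.72 ± 0.45 (SE), therefore depends on the dim end of the scale (adjusted p = 0.0523 in limma, range 8.2e-04 to 0.887 over the alternatives).

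S100a8 and S100a9, which code for the paired calcium-binding subunits of calprotectin, had higher means at 10 weeks but very unequal 4-week arrays. S100a8 was 5.01, 12.30 and 11.55 at 4 weeks and 13.04 and 12.40 at 10 weeks. S100a9 was 4.47, 11.43 and 11.06 at 4 weeks and 12.79 and 12.02 at 10 weeks. Neither gene's groups overlapped, yet replicate 1 at 4 weeks set the size of both: the differences of 3.10 ± 1.90 (SE) and 3.42 ± 2.02 (SE) became 0.79 and 1.16 without it. Neither passed (adjusted p = 0.839 and 0.836 in limma).

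The same array was the low one for Orm1, an acute-phase plasma protein, at 3.74, 7.16 and 7.56 at 4 weeks against 8.91 and 8.59 at 10 weeks (difference 2.60, or 1.40 without replicate 1). It was also low for the beta-defensin Defb6, at 9.47, 12.41 and 11.73 against 12.76 and 12.70 (1.53). The alarmin cytokine Il33 differed in that replicate 2 was lowest, at 6.95, 4.39 and 8.002 against 8.33 and 8.68 (2.06, or 1.03 without replicate 2). The controls averaged 9.59 for Il33, so both SmoM2 stages lay below them.

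Of 16 antimicrobial peptides and alarmins tested, 5 were at least 2-fold higher without overlap (Defb3, Defb6, S100a8, S100a9 and Il33) and none lower, against 1.4% and 1.13% of all genes, with a median difference of 0.54 that became 0.11 without 4-week replicate 1. In the list of wound and barrier stress genes, 4 of 19 were higher by that rule and none lower, and 16 of 19 had a positive difference. These 4 (S100a8, S100a9, Il33 and Defb3) also belong to the antimicrobial list, so the counts of the lists are not independent. The wound list's median of 0.94 became 0.41 without the same array. Several stress genes had large mean differences but overlapping arrays. Krt6b, a keratin of wounded epidermis, was 4.78, 10.55 and 12.37 at 4 weeks and 11.51 and 11.03 at 10 weeks. Krt16, its frequent companion, was 7.13, 9.99 and 11.99 against 11.34 and 11.69. In both, replicate 3 at 4 weeks lay above the 10-week arrays.

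S100a8 and S100a9 are also markers of neutrophils. The summed signal of 12 markers of neutrophils and mast cells was 8.37 to 13.00 (log2) at 4 weeks and 13.26 to 13.95 at 10 weeks, against 8.80 to 11.46 in the controls. That sum includes S100a8 and S100a9, and without them the other 10 markers summed to 8.11 to 8.51 at 4 weeks, 8.10 to 8.12 at 10 weeks and 8.26 to 8.88 in the controls. Among the other markers, Mpo was 4.86 and 4.74 at 10 weeks and above the 40th percentile on neither array. Elane differed by -0.10, Csf3r by -0.10 and Cxcr2 by -0.14. Cpa3, Mcpt4, Cma1 and Ms4a2 were not above the 40th percentile on any of the 5 arrays.

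Genes of suprabasal differentiation, the programme by which keratinocytes leave the basal layer and build the cornified envelope, had more positive than negative differences. Krt1, a keratin of the first suprabasal layers, was 10.42, 11.69 and 12.27 at 4 weeks, 12.38 and 13.08 at 10 weeks and 12.80 on average in the controls. Its difference of 1.27 ± 0.51 (SE) became 0.75 without 4-week replicate 1 (adjusted p = 0.794 in limma with all arrays). Krt10, its partner in the filament, was 13.08, 12.59 and 13.14 at 4 weeks and 13.36 and 13.80 at 10 weeks, a difference of 0.65.

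Krt24, a keratin of differentiating epidermis, depended less on any one array. It was 7.46, 8.29 and 7.94 at 4 weeks, 9.88 and 10.16 at 10 weeks and 9.95 in the controls (2.12 ± 0.51, SE, adjusted p = 0.704 in limma, 1.90 to 2.32 with each array left out). Tgm3, a transglutaminase that cross-links the envelope, was 6.47, 7.24 and 8.11 at 4 weeks and 8.42 and 9.21 at 10 weeks, below the 10.64 of the controls. Mt4, a metallothionein of stratified epithelium, was 8.44, 8.56 and 10.10 against 10.26 and 11.82, also below the controls at 13.03. For both genes replicate 3 at 4 weeks came closest to the 10-week pair.

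Krtdap, a secreted protein of differentiating keratinocytes, was 10.91, 13.13 and 13.28 at 4 weeks and 13.56 and 13.59 at 10 weeks. Without replicate 1 its difference of 1.13 became 0.37. Aqp3, a water and glycerol channel of keratinocytes, was 8.05, 10.42 and 11.45 at 4 weeks and 12.07 and 12.10 at 10 weeks (2.11, or 1.15 without replicate 1). Of the 39 genes of suprabasal differentiation tested, 4 were at least 2-fold higher without overlap (Krt1, Krtdap, Tgm3 and Mt4) and none lower, against 1.4% and 1.13% of all genes. Of the same genes, 29 had a positive and 10 a negative difference, and the median was 0.35. That median became 0.07 without 4-week replicate 1 and 0.75 without replicate 3. Not every late differentiation gene followed: Krt2, a keratin of the upper tail epidermis, was 9.78, 6.89 and 10.37 at 4 weeks and 8.39 and 10.12 at 10 weeks, far below the controls at 12.85.

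Among basal genes, 0 of 16 met the 2-fold criterion in either direction, against 2.53% of all genes, and the median was 0.14. Krt15, a keratin of basal and follicle stem cells, was 12.33, 12.31 and 12.51 at 4 weeks and 11.81 and 11.57 at 10 weeks, a difference of -0.69 ± 0.28 (SE) without overlap.

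**Figure D2:**
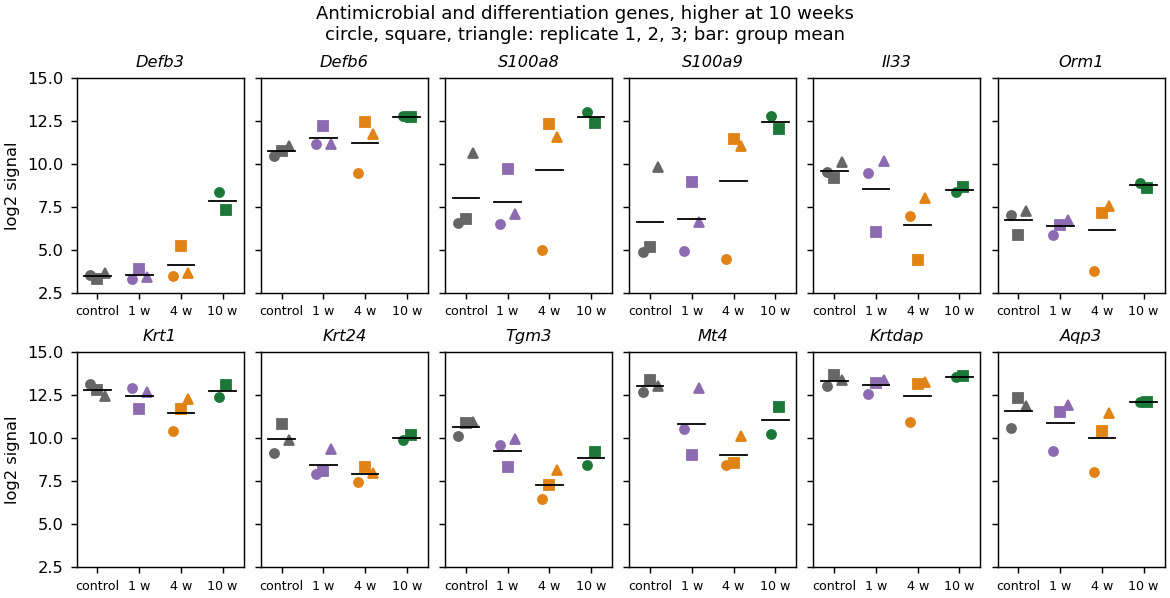
Log2 signal (y axis) of 12 antimicrobial and differentiation genes in the controls and at 1, 4 and 10 weeks (x axis), with 1 symbol per array and a bar at the group mean. Circles are replicate 1, squares replicate 2 and triangles replicate 3. For S100a8, S100a9, Orm1 and Krtdap the 4-week circle lies far below the other 4-week symbols, whereas for Krt24 the 3 symbols lie between 7.46 and 8.29, all below the 10-week pair.

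Other genes among the 20 with the largest positive differences belong to no single group of function. Stap1, an adaptor protein of signalling downstream of tyrosine kinases, was 5.53, 4.23 and 4.47 at 4 weeks and 7.07 and 7.08 at 10 weeks (2.33 ± 0.36, SE, adjusted p = 0.174 in limma). Only 1 of the 4-week arrays was above the 40th percentile, and both 10-week arrays were. Gpha2, a subunit of the glycoprotein hormone thyrostimulin, was 5.37, 6.96 and 6.93 against 9.07 and 8.71. Car2, a carbonic anhydrase, was 5.88, 8.19 and 9.63 against 9.95 and 10.08, so replicate 3 at 4 weeks nearly reached the 10-week pair. The uncharacterised Tmem267 was 4.88, 4.25 and 7.51 against 8.34 and 7.92, with the first and second 4-week arrays not above the 40th percentile. Hsd17b11, a short-chain dehydrogenase, was 6.42, 8.95 and 7.31 against 9.49 and 9.43.

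Genes of the extracellular matrix supplied several of the largest negative differences. Vcan, the large proteoglycan versican, was 11.55, 9.07 and 10.22 at 4 weeks, 7.64 on each of the 10-week arrays and 6.50 in the controls. Every 4-week array lay above both 10-week arrays, which lay nearer to the controls. The difference was -2.64 ± 1.12 (SE), or 6.23-fold lower (adjusted p = 0.794 in limma). Of the 8 Vcan probe sets 3 differed by more than 1.5 and 1 had the opposite sign. That 1 was dim, with means of 3.47 at 4 weeks and 3.56 at 10 weeks.

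Fn1, the matrix glycoprotein fibronectin, was more even among arrays. It was 7.65, 7.13 and 8.12 at 4 weeks, 5.83 and 5.89 at 10 weeks and 6.55 in the controls, a difference of -1.77 ± 0.39 (SE, adjusted p = 0.556 in limma). With array weights the adjusted p of Fn1 in limma was 0.0331, the lowest of a range up to 0.9999 over the alternatives. Bgn, the small proteoglycan biglycan, was 11.32, 11.13 and 11.07 at 4 weeks and 9.89 and 9.71 at 10 weeks (-1.37 ± 0.77, SE).

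Of 24 collagens tested, 17 had a negative and 7 a positive difference. Col14a1, a fibril-associated collagen, was 11.96, 10.08 and 11.29 at 4 weeks and 8.71 and 8.30 at 10 weeks, against 5.74 in the controls (-2.60). Col27a1, a fibrillar collagen, was 11.84, 10.76 and 11.31 against 9.54 and 9.43 (-1.82). Col4a1, a chain of the common basement membrane network, was 12.54, 10.38 and 11.15 against 10.34 and 10.27 (-1.05, or -0.46 without 4-week replicate 1). The 10-week arrays of these 3 genes lay between the controls and the 4-week arrays.

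Col4a3, a basement membrane chain of another type IV network, was the only collagen higher by the 2-fold rule. It was 4.24, 6.40 and 4.64 at 4 weeks, 7.43 and 7.84 at 10 weeks and 5.01 in the controls (2.54 ± 0.52, SE, adjusted p = 0.493 in limma). The adjusted p of Col4a3 in limma was 0.0109 without 4-week replicate 2, within a range of 0.0025 to 0.9999 over the alternatives. Col4a4, its partner chain, encoded head to head with it, was 5.37, 9.72 and 5.55 against 9.09 and 9.21, so that 1 of the 4-week arrays lay above the 10-week pair.

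Across the 24 collagens tested, 3 were at least 2-fold lower and 1 higher without overlap, against 1.13% and 1.4% of all genes. Of the 24, 17 had a negative difference. The median was -0.31, which stayed between -0.38 and -0.22 with any of the 5 arrays left out. Of 31 matrix proteins, proteases and inhibitors, 3 were lower (Fn1, Vcan and Bgn) and 1 higher, against the same shares of all genes. Their median was -0.10. The higher gene was Adamts5, a protease that cleaves versican and aggrecan, at 6.02, 6.49 and 7.11 against 8.32 and 8.19 (1.71 ± 0.39, SE, adjusted p = 0.579 in limma). Mmp13, a collagenase, was 3.47, 4.03 and 7.88 at 4 weeks and 7.73 and 6.72 at 10 weeks, and its arrays overlapped.

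Because matrix genes are also expressed by dermal fibroblasts, the markers of that cell type are given beside them. Their summed signal was 12.01 to 12.91 (log2) at 4 weeks, 12.27 to 12.38 at 10 weeks and 11.38 to 12.38 in the controls. Of 12 tested, 4 had a positive and 8 a negative difference, with a median of -0.22. Col1a1 and Dpt were not above the 40th percentile on any of the 5 arrays, Dcn differed by 0.01 and Col1a2 by -0.94. Of these markers Col1a1, Col1a2, Col3a1, Col6a1, Dcn, Lum and Sparc are also on the collagen or matrix list, so they are no independent check.

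Further genes of the 20 lowest include secreted and surface proteins. Cilp, a matrix protein first found in cartilage, was 9.78, 5.85 and 7.60 at 4 weeks and 5.16 and 4.63 at 10 weeks (-2.85). Fstl1, a secreted follistatin-like glycoprotein, was 9.60, 9.59 and 9.01 against 7.24 and 6.49 (-2.54 ± 0.68, SE, adjusted p = 0.743 in limma). Mme, the surface peptidase neprilysin, was 9.20, 5.18 and 8.35 against 4.40 and 4.18, and neither 10-week array was above the 40th percentile. For Mme and Cilp the second 4-week array came closest to the 10-week pair, while for Fstl1 all 3 lay far above it.

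Mtcl1, a microtubule cross-linking protein, was 9.33, 7.24 and 8.02 at 4 weeks and 5.25 and 4.98 at 10 weeks (-3.08 ± 0.58, SE, 8.48-fold, adjusted p = 0.352 in limma). Its 10-week values lay next to the control mean of 4.81. Slc15a2, a peptide transporter, was 10.90, 6.31 and 8.81 against 5.59 and 4.75, with 7.69 in the controls. Cxxc5, a zinc-finger protein known to dampen Wnt signalling, differed by -1.69 ± 0.26 (SE, adjusted p = 0.174 in limma), and its groups did not overlap. Adcy7, an adenylate cyclase, was 9.19, 8.65 and 9.88 against 6.89 and 6.87. Gab2, a scaffold of receptor tyrosine kinase signalling, was 9.03, 7.10 and 7.71 against 5.71 and 5.87.

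Some regulators of the hair placode, the epithelial thickening from which a follicle grows, were lower at 10 weeks. Cux1, a homeodomain factor of hair follicle lineages, was 10.42, 9.37 and 10.09 at 4 weeks, 8.56 and 8.57 at 10 weeks and 8.86 in the controls (-1.39 ± 0.33, SE, adjusted p = 0.699 in limma). Edar, the ectodysplasin receptor that acts early in placode formation, was 7.32, 4.9997 and 6.27 against 4.87 and 4.60. Its second 4-week array lay close to the 10-week pair, and neither 10-week array was above the 40th percentile. Another Edar probe set differed by 0.11 but was dim, with means of 3.15 at 4 weeks and 3.26 at 10 weeks.

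Tbx1, a T-box factor of follicle stem cells, was 9.55, 11.48 and 9.01 at 4 weeks and 8.59 and 8.77 at 10 weeks (-1.33, or -0.60 without replicate 2). Not all placode genes were lower. Runx1 had a higher mean at 10 weeks (1.30, or 0.49 without 4-week replicate 2), but its arrays overlapped. Other Runx1 probe sets differed by -0.61 to 1.34. Cdh3 differed by 0.77, or -0.067 without 4-week replicate 1. Lhx2 and Lef1 lay within 2-fold. Lhx2, a LIM homeodomain factor, was 11.65, 11.74 and 11.68 against 11.18 and 11.02, a small difference (-0.59) between groups that did not overlap. Lef1, a partner of beta-catenin on DNA, was 7.25, 7.26 and 7.34 against 6.99 and 7.21. In the whole list of 22 placode genes tested, 3 were at least 2-fold lower without overlap and none higher, against 1.13% and 1.4% of all genes. In that list 13 had a negative difference and the median was -0.13.

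**Figure D3:**
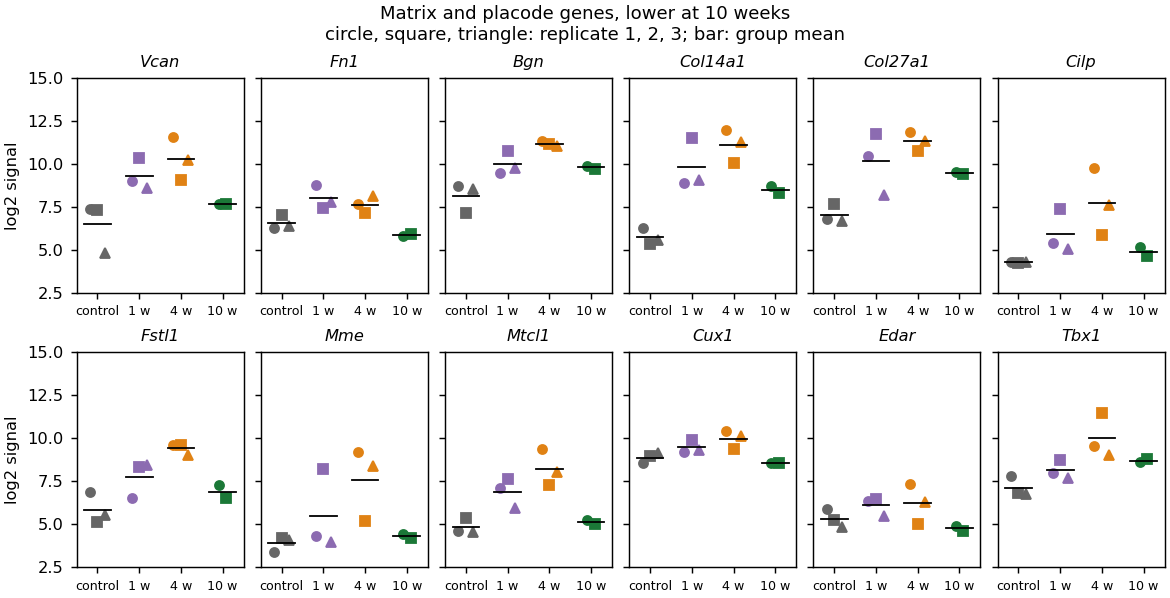
Log2 signal (y axis) of 12 matrix and placode genes in the controls and at 1, 4 and 10 weeks (x axis), with 1 symbol per array and a bar at the group mean. Circles are replicate 1, squares replicate 2 and triangles replicate 3. In each panel the 10-week pair lies below all 4-week symbols, and for Vcan, Col14a1, Col27a1, Bgn and Fstl1 it lies between the control and the 4-week means.

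By the probe set used for each gene, the mean differences of the hedgehog targets tested lay between -0.79 and 0.33, within 2-fold. The precision does not allow the stages to be called equal. Gli1, the transcription factor most directly induced by the pathway, was 10.55, 10.83 and 9.95 at 4 weeks, 9.70 and 9.86 at 10 weeks and 5.54 in the controls. Its 10-week arrays lay just below all 3 at 4 weeks, and the difference of -0.66 ± 0.60 (SE) did not pass (adjusted p = 0.888 in limma). Ptch1, the receptor and feedback inhibitor, was 13.60, 12.92 and 12.64 against 12.68 and 12.45 (-0.49), with overlap. Hhip, a ligand-binding inhibitor, was 10.29, 11.19 and 8.84 against 10.61 and 10.23 (0.32), also with overlap, and its sign turned without 4-week replicate 3.

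Of 15 hedgehog targets tested, none was at least 2-fold apart without overlap, against 2.53% of all genes. In that list 5 had a positive and 10 a negative difference, and the median was -0.05. The 20 ligands and transducers had a median of -0.33: 16 were negative, and 9 were lower and 2 higher without overlap at any size, against 13.5% and 13.0% of all genes, yet none reached 2-fold. Smo, which the transgene also encodes, was 11.48, 10.98 and 11.01 against 10.78 and 10.74 (-0.40), and the array cannot tell the transgene from the endogenous transcript where the probes match both. Gli2, the main activator, differed by -0.21. Gli3, mostly a repressor, was 8.07, 9.36 and 8.78 against 7.85 and 7.93 (-0.85). Shh, the ligand of hair growth, was 6.07, 5.42 and 5.57 against 4.83 and 4.71 (-0.92), with neither 10-week array above the 40th percentile. Another Shh probe set differed by 0.16 but was dim, with means of 4.30 at 4 weeks and 4.46 at 10 weeks.

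The BMP antagonists Fst and Grem1 had higher means at 10 weeks, as had the Wnt antagonist Wif1, whereas their lists as a whole were mixed. Fst, follistatin, which binds activins and BMPs, was 8.81, 10.74 and 9.39 at 4 weeks, 11.56 and 11.61 at 10 weeks and 8.10 in the controls (1.93 ± 0.51, SE, 3.82-fold, adjusted p = 0.743 in limma). Grem1, gremlin, a BMP antagonist, was 6.42, 7.89 and 7.12 against 8.76 and 8.67, with 5.26 in the controls (1.58). Wif1, a secreted inhibitor of Wnt ligands, was 7.71, 12.31 and 9.30 against 12.18 and 12.24, with 4.83 in the controls. For Wif1 the second 4-week array already matched the 10-week pair, so the groups overlapped and the difference of 2.43 ranged from 1.40 to 3.70 as single arrays were left out.

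Of 22 genes of the BMP pathway and its antagonists, Fst and Grem1 were higher by the 2-fold rule and Fstl1 lower. The shares of all genes were 1.4% and 1.13%. Of these 22, 13 had a negative difference and the median was -0.25. Of 9 secreted Wnt antagonists, none met the rule, 5 had a positive and 4 a negative difference and the median was 0.16. Bulge markers were mixed: Nfatc1, Grem1 and Fst were higher and Tbx1 and Npnt lower among 23 tested, against the same shares. Their median was 0.20. Nfatc1, a factor that keeps bulge stem cells quiescent, was 8.99, 10.56 and 9.56 against 10.69 and 10.83. Npnt, the bulge basement membrane protein nephronectin, was 10.21, 7.23 and 9.39 against 7.02 and 6.87, so that its second 4-week array lay near the 10-week pair. Lgr5, a receptor for R-spondins on follicle stem cells, was 9.69, 10.56 and 10.60 against 10.41 and 10.54. Sox9, a factor of the outer root sheath, was 8.64, 10.77 and 10.56 against 10.81 and 10.71. In both the first 4-week array was the low one.

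Wnt feedback genes gave 2 of 15 higher by the 2-fold rule and none lower, against 1.4% and 1.13% of all genes. In that list 12 of 15 had a positive difference and the median was 0.24. Apcdd1, a membrane inhibitor of Wnt signalling and itself a target of it, was 10.20, 10.09 and 10.32 at 4 weeks and 11.62 and 11.43 at 10 weeks. Both groups were tight, and the difference was 1.32 ± 0.42 (SE, adjusted p = 0.794 in limma). Axin2, the commonly used readout of beta-catenin activity, was 8.18, 7.24 and 7.51 against 8.17 and 8.12 (0.50), with overlap. Myc was 6.95, 8.32 and 8.70 against 9.28 and 8.98 (1.14, or 0.62 without 4-week replicate 1). Among the receptors Ror2, a co-receptor for non-canonical Wnt ligands, was 8.21, 6.62 and 7.28 against 6.47 and 6.07, the only one of 15 at least 2-fold apart without overlap. Of the 14 ligands tested Wnt16 alone met the rule, at 4.66, 4.58 and 5.45 against 6.25 and 6.07. Its first and second 4-week arrays were not above the 40th percentile. By the same rule 2.53% of all genes were apart in either direction.

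**Figure D4:**
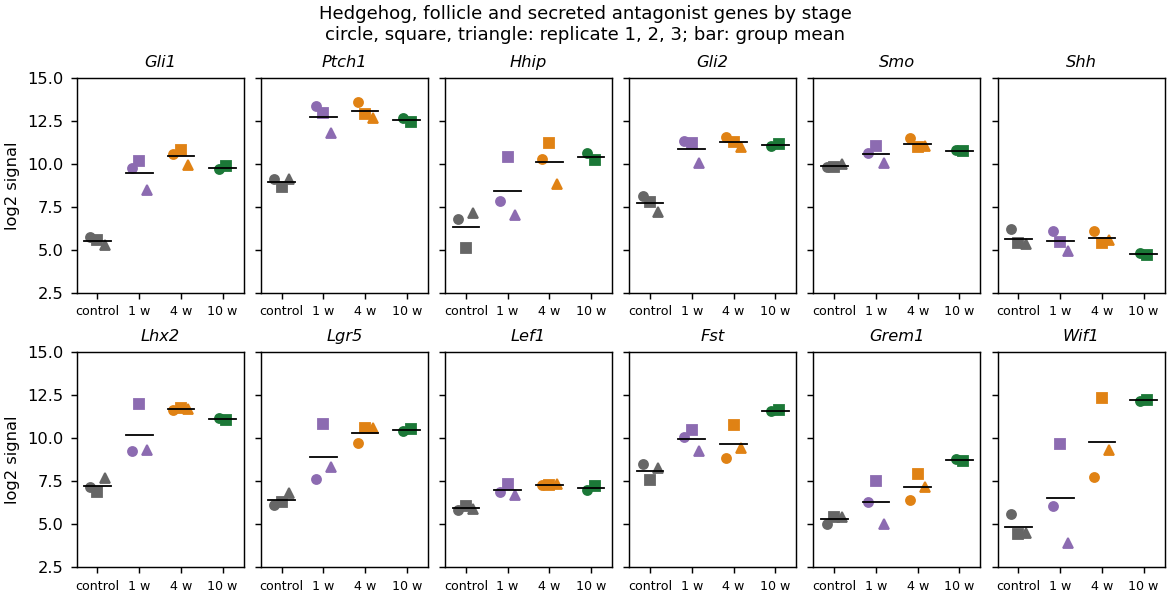
Log2 signal (y axis) of 12 genes of the hedgehog pathway, the follicle and secreted antagonists in the controls and at 1, 4 and 10 weeks (x axis), with 1 symbol per array and a bar at the group mean. Circles are replicate 1, squares replicate 2 and triangles replicate 3. Gli1, Ptch1, Gli2 and Lhx2 lie far above the controls at both 4 and 10 weeks, with means less than 1 log2 unit apart, while Fst and Grem1 are higher at 10 weeks than on any 4-week array.

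Genes on the list of hair-type keratins and hair differentiation were mostly lower at 10 weeks. Besides keratins of the hair shaft and tail scales, the list holds inner root sheath keratins and genes that are not keratins. Hoxc13, Gata3 and S100a3 are among the latter. Of 26 tested, 23 had a negative difference and the median was -0.36, between -0.50 and -0.18 with any of the 5 arrays left out. Krt35 was 6.15, 5.79 and 6.64 at 4 weeks and 4.64 and 5.01 at 10 weeks (-1.37 ± 0.33, SE, adjusted p = 0.702 in limma). Krt28, a keratin of the inner root sheath, was 5.50, 5.07 and 6.68 against 4.22 and 4.85. Neither 10-week array was above the 40th percentile for Krt28, and only the second was for Krt35. Hoxc13, a homeobox regulator of hair keratins, was 8.97, 9.40 and 9.06 against 7.71 and 8.18.

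These 3 met the 2-fold rule, against 1.13% of all genes. The scale keratins Krt84 and Krt36 overlapped between stages. Krt84 was 8.24, 7.18 and 9.84 against 6.73 and 7.93, and Krt36 was 9.36, 6.77 and 10.56 against 7.35 and 8.69, with controls at 12.58 and 13.05. Krt75, the companion layer keratin, was 7.02, 6.24 and 7.97 against 5.33 and 5.55 (-1.64 ± 0.41, SE), while the simple keratin Krt7 was 5.74, 6.68 and 6.27 against 8.11 and 7.95 (1.80 ± 0.57, SE).

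Genes of the cell cycle did not separate the stages. Of 33 genes of cell cycle and mitosis, none was free of overlap at any size, against 13.0% higher and 13.5% lower among all genes. In that list 22 had a positive difference. The median was 0.13, which ranged from -0.41 without 4-week replicate 2 to 0.54 without replicate 3. Mki67, the proliferation marker, was 11.54, 9.91 and 11.38 at 4 weeks and 10.59 and 10.82 at 10 weeks. The 10-week arrays lay inside the 4-week range. DNA replication genes had a median of 0.04 over 27 tested. None was at least 2-fold apart without overlap, against 2.53% of all genes, a share too small for that count to tell. Among inhibitors Cdkn2a, which encodes p16 and p19Arf, was 3.97, 8.73 and 5.72 against 7.52 and 7.85, with 4.14 in the controls, and its second 4-week array lay above the 10-week pair.

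Few genes of growth factor pathways met the 2-fold rule, which few of all genes met either. Spry2, a feedback inhibitor of FGF and EGF receptors, was 8.28, 8.84 and 8.34 at 4 weeks and 7.35 and 7.59 at 10 weeks (-1.01 ± 0.26, SE, adjusted p = 0.704 in limma), the only one of 16 FGF genes by the 2-fold rule. None of 13 EGF, 19 Notch or 20 TGF-beta pathway genes met it, with medians of 0.08, -0.16 and -0.02. Of all genes, 2.53% met the rule in either direction, so these counts do not set the pathways apart. Foxo1, a forkhead factor restrained by insulin and Akt signalling, was 9.50, 8.66 and 8.42 against 7.92 and 7.58.

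In the list of glycolysis and hypoxia, 22 of 27 had a positive difference and 12 were higher and 3 lower without overlap at any size, against 13.0% and 13.5% of all genes. The median was 0.32, between 0.27 and 0.36 with any of the 5 arrays left out. Slc2a1, the glucose transporter Glut1, was 10.45, 12.02 and 11.66 at 4 weeks and 12.33 and 12.27 at 10 weeks. Pfkfb3, which makes the activator of phosphofructokinase, was 6.90, 5.79 and 6.27 against 7.29 and 7.49, the only member 2-fold apart. Pdk1, which holds pyruvate back from mitochondria, went the other way at 11.49, 10.90 and 10.09 against 9.95 and 10.07.

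Detoxifying enzymes had a median of 0.60 over 32 tested, which became 0.32 without 4-week replicate 1. Of these genes 22 had a positive and 10 a negative difference, and 11 were higher and 2 lower without overlap at any size, against 13.0% and 13.5% of all genes. Nqo1, a quinone reductase, was 4.998, 5.84 and 5.88 against 6.99 and 6.70 (1.28 ± 0.43, SE). Adh7, an alcohol dehydrogenase that also acts on retinol, was 7.78, 7.69 and 7.51 against 8.98 and 9.07 (1.37 ± 0.51, SE). Aldh3a1, an aldehyde dehydrogenase, was 11.02, 9.34 and 8.96 against 11.34 and 11.43, so the first 4-week array came close to the 10-week pair. None of the 3 passed (adjusted p of 0.794, 0.794 and 0.799 in limma). In the list of sterol and fatty acid synthesis, the fatty acid desaturases Fads1 (9.38, 8.39 and 8.18 against 7.14 and 6.62) and Fads2 (9.28, 7.59 and 7.26 against 6.97 and 6.08) were lower, and the median of 25 genes was -0.09.

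**Figure D5:**
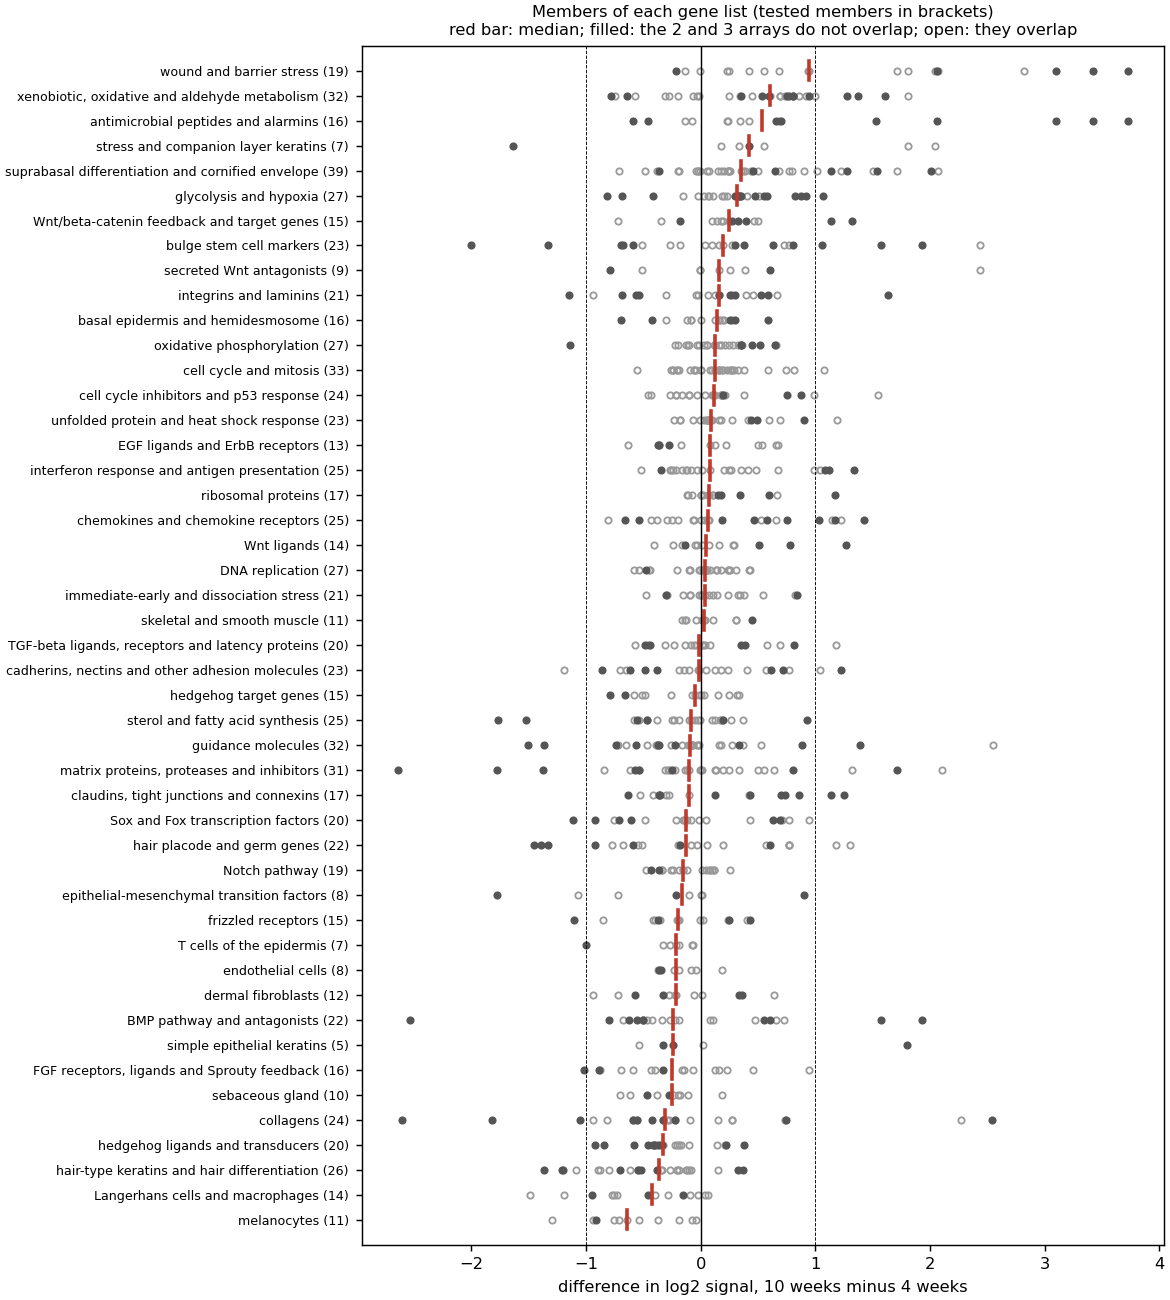
Difference in log2 signal, 10 weeks minus 4 weeks (x axis), of every tested member of each gene list (y axis, members in brackets), with a red bar at the median. Filled points are members whose arrays do not overlap, and dashed lines mark 2-fold. Medians run from 0.94 for wound and barrier stress to -0.64 for melanocytes, and single members such as Defb3 and Vcan lie far from the median of their list.

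Markers of other cells that the sort could hold were summed per array. Melanocyte markers were 9.97 to 11.29 at 4 weeks and 9.60 to 10.17 at 10 weeks (10.76 to 12.96 in the controls), and all 11 tested had a negative difference, with a median of -0.64. Dct, a melanin-synthesis enzyme, was 7.78, 7.21 and 9.52 against 5.84 and 7.91. Markers of Langerhans cells and macrophages were 9.99 to 11.36 against 9.99 to 10.13, with 12 of 14 negative and a median of -0.43. H2-Aa, a class II antigen-presenting chain, was 6.28, 7.71 and 9.36 against 6.12 and 6.48, and Itgax, Itgam, Mrc1 and Adgre1 were not above the 40th percentile on any of the 5 arrays.

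Markers of T cells of the epidermis were 8.61 to 9.10 at 4 weeks and 8.55 to 8.58 at 10 weeks, and 5 of them (Cd3g, Cd247, Cd2, Il2rb and Nkg7) were not above the 40th percentile on any of the 5 arrays. Endothelial markers were 9.06 to 9.59 against 9.10 to 9.17, sebaceous markers 12.29 to 13.71 against 12.52 to 12.73, and muscle markers 9.15 to 9.30 against 9.26 to 9.41. The 4-week range of each was at least as wide as the gap between the stages. In bulk samples fewer cells of a type and less RNA per cell cannot be told apart, and the part of other cells, of sex-linked signal and of single 4-week arrays in the differences above was not tested beyond the values given.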

How the data were processed

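The deposited table holds 45101 probe sets by 16 Affymetrix arrays, made per the labels' protocols from total RNA amplified with a 3′ in vitro transcription kit. Its values, as the authors deposited them, were already summarised per probe set and taken as log2 from their range (2.73 to 14.62), with array medians of 5.38 to 5.53. The submitters' processing notes name R 2.14.0; how background and normalization were handled is not given in the sources used here. With the array annotation 34958 probe sets had 1 gene, 932 several and 9211 none, and the probe set with the highest mean over all 16 arrays stood for each of 18194 genes. Genes above the 40th percentile of the array on at least 2 arrays (14286) entered a fit in limma 3.58.1 (R 4.3.3): group means of 14 IFE arrays, empirical Bayes (11.6 total degrees of freedom) and Benjamini-Hochberg adjustment. Same-numbered arrays of the controls, 1 week and 4 weeks deviated together, with no source saying what the number marks. The 10-week arrays carry other numbers in their descriptions than in their titles. Their deviations mirror each other and so cannot show which number, if either, applies. The main fit therefore has no block and both blocks are alternatives. The script was tested on simulated data. The number of arrays limits the precision, and p-values cover only the spread among these samples, which may be technical.

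The comparison, the gene lists and the rule for named genes were chosen with earlier results of these data known. Named were the 20 largest differences each way among genes without overlap, up to 4 members of each list at least 2-fold apart without overlap or else the 2 of lowest p, and a set of 30 genes. Others, such as Defb6, Krt6b, Krt16, Krt2, Col4a4, Mmp13, Gli3, Nfatc1, Slc2a1, Pdk1, Cxxc5 and marker genes, were added after their values were seen. Of the named genes, 83 had more than 1 probe set and 23 of these had another of opposite sign. Alternatives covered the filter, normalization, probe set, variance model, array weights, samples, Y-linked signal, replicate block and each array left out.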

Additional observations from a re-analysis of the deposited data

How the results depend on the processing

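The count past the adjusted p was 0 with all genes kept, centring on array medians, the mean or the most variable of a gene's probe sets, only the 5 arrays, the 10-week arrays averaged to 1 sample, Y-linked signal as a covariate and the replicate block of the descriptions. It was 1 (Defb3) with a 60th percentile filter, quantile normalization or trend and robust settings, 14 with array weights, 2 (1810014B01Rik and Aknad1) with the replicate block of the titles, and 0 to 13 with single arrays left out. Genes at an unadjusted p under 0.05 numbered 893, but 199 when the 10-week arrays were averaged, 2587 with the block of the titles and 1215 with that of the descriptions. Which of these numbers, if either, pairs the 10-week arrays with the 4-week arrays is not settled. A setting chosen after seeing the data, without the 3 arrays of low upper quartile (replicate 2 of controls, 1 week and 4 weeks), gave 5: Aspn, Col4a3, Defb3, Mme and Sema3e.

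Genes at least 2-fold apart without overlap numbered 361 (200 higher, 161 lower). They were 617 (410 higher) with the most variable probe set, 548 (321 higher) with the block of the titles, 301 with that of the descriptions, 726 (353 higher, 373 lower) without the 3 arrays, and 268 to 826 (122 to 531 higher, 146 to 373 lower) with single arrays left out. With the mean of probe sets 99 were lower. With centring, 183 were higher and 176 lower. For both blocks the size was that of the blocked fit, while overlap was judged on the unadjusted values.

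Of 2834 values of named genes under alternatives, 2793 kept direction and side of the threshold, 18 passed it and 23 changed sign. Krt5 was -0.016 with quantile normalization, -0.0086 centred, -0.061 with Y-linked signal, -0.058 with the block of the titles and -0.093 to 0.10 with arrays left out. Krt14 was -0.15 with the mean of probe sets, -0.92 with the most variable, -0.016 without the 3 arrays and -0.016 to 0.35 with arrays left out. H2-D1 was -0.62 with the mean of probe sets and -4.20 with the most variable one. Ctnnb1 was 0.13 and 0.49 in these settings. Krt17 was -0.37 with the mean. Lpl was 0.015 with the mean, 0.015 with the block of the descriptions and -1.47 to 0.32 with arrays left out. Lgr5 was -0.20 with the block of the descriptions. With arrays left out Lgr5 ranged from -0.10 to 0.35, Cdh3 from -0.067 to 1.26, Mki67 from -0.75 to 0.057 and Hhip from -0.32 to 0.86. The cause was not tested. Of 988 list medians under alternatives, 75 in 25 lists moved by more than the spread between arrays.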

Other observations

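Some gene groups outside the account above held single genes far apart. Among 25 chemokines and receptors Cxcr4, the receptor for Cxcl12, was 5.12, 7.14 and 5.89 at 4 weeks and 7.63 and 7.31 at 10 weeks, with 4.09 in the controls (1.42 ± 0.58, SE, adjusted p = 0.794 in limma). Ccl20 and Cxcl9 were the other 2 members at least 2-fold higher without overlap, against 1.4% of all genes, and the median of the list was 0.06. Occludin (Ocln), a tight junction protein, was 6.63, 7.56 and 7.72 against 8.51 and 8.61, and connexin 30 (Gjb6) 8.01, 9.12 and 9.33 against 9.87 and 10.04, while 9 of 17 junction genes had a negative difference. The integrin chain Itgb6, an activator of latent TGF-beta, was 4.75, 5.89 and 7.55 against 7.72 and 7.68, so replicate 3 at 4 weeks nearly reached the 10-week pair. The guidance receptor Nrp2 was 11.57, 9.34 and 11.14 against 9.31 and 9.05, and the ligand Ntn1 6.74, 6.64 and 8.06 against 5.87 and 5.69.

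The probe sets of H2-D1, a class I antigen-presenting chain, disagreed, in mice of mixed strain background. The one used differed by 1.12 and others by up to 1.53, whereas further ones differed by -4.20, -3.38 and -3.25. The cause was not tested.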
